A study of Mus musculus with 16 samples.

Results

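The comparison set left ventricles of mice given L-NAME with salt together with angiotensin II against left ventricles of mice given angiotensin II alone. The arrays were chosen by their labels, 4 titled LNAME+AngII and 4 titled AngII, of 16 arrays in the series. All mice were male C57BL6, 12 weeks old when assigned at random to a group. The LNAME+AngII mice drank 0.3 mg/ml L-NAME with 1% NaCl for 5 weeks and received angiotensin II (AngII) at 0.7 mg/kg/day from a subcutaneous osmotic pump for 4 weeks. The AngII mice received the pump dose alone. The other 8 arrays are 4 of mice given L-NAME with salt (LNAME) and 4 of untreated controls (Ctrl), and these enter below as the same treatment without AngII. No label says whether the AngII or Ctrl mice drank salt, so L-NAME and salt cannot be told apart. Nor do the labels say that each array is a separate mouse, so the p-values rest on how far these samples scatter, which may be technical.

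L-NAME is an arginine analogue that blocks the nitric oxide synthases. Nitric oxide made by the endothelium activates soluble guanylate cyclase in neighbouring muscle cells, and the cyclic GMP that results relaxes vessels and restrains growth signalling in the heart. AngII acts through its type 1 receptor to constrict vessels, retain salt and drive matrix production by fibroblasts and growth of cardiomyocytes. In the title of the series the combination is a model of non-ischemic heart failure, and the question taken up here is which transcripts differ once L-NAME and salt are added to AngII.

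Values are the authors' deposited log2 intensities from Illumina BeadChips, normalised so that all arrays share the same distribution, with a median of 6.90; background is 7.12, the level that 95% of chemosensory receptor probes stay below. A gene is said to have passed where limma's adjusted p was under 0.05 over 9119 genes. Ventricular cardiomyocyte markers averaged 12.34 to 12.59 on the LNAME+AngII arrays and 12.57 to 12.59 on the AngII arrays (the range of array means over 13 markers). LNAME+AngII array 4 stood apart: its residual SD was 0.48, against 0.21 to 0.32 on the other 15 arrays, and the mean of its 4 tested erythroid markers was 13.19, against 11.17 to 11.73 on the other LNAME+AngII arrays and 11.08 to 11.33 on the AngII arrays. The count over all genes, and each list count that changed, is therefore also given without it.

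Adding L-NAME and salt to AngII was followed by higher levels of 39 genes and lower levels of 28. These 67 genes are 0.735% of those tested (0.428% higher and 0.307% lower), and their median absolute difference was 0.93 on the log2 scale, or 1.9-fold. The higher genes included matrix assembly genes, the NADPH oxidase Nox4, the sphingosine kinase Sphk1 and the stretch-responsive muscle gene Ankrd2. Among the lower genes were cardiac ion channel and calcium genes, the calcineurin inhibitor Tbc1d10c and enzymes of lactate, lipid and glycogen use. For 65 of the 67 genes all 4 LNAME+AngII arrays lay on one side of all 4 AngII arrays. Over all genes tested this held for 704, or 7.72%. The genes were called on these same arrays, so their separation is no further evidence. The median difference of all genes was -0.009.

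How many genes passed depended on single arrays. Without LNAME+AngII array 4, 119 genes passed (80 higher, 39 lower; 1.3% of those tested), and 58 of the 67 were among them (Panx1, Wt1, Emb, Gfpt2, Acot3, Mvb12b, N4bp2, Ppp1r26 and Acad12 were not). With AngII array 1, 2 or 4 left out, 22, 20 and 21 genes passed, and without LNAME+AngII array 1 it was 40. In these fits, which hold fewer arrays, the median absolute difference of the 67 genes was 0.91, 0.90, 0.85 and 0.91. With the replicate number as a block 172 genes passed (1.89% of those tested), including all 67. With the 8 arrays of the comparison fitted alone 3 genes passed, of which 2 are among the 67, so most calls rest on the spread estimated over all 16 arrays. All 67 kept their direction without any 1 of the 8 arrays, which could not have come out otherwise for the 65 genes without overlap. Of the 67, 18 passed each time. The higher ones were Ankrd2, Sphk1, Dkk3, Mfap5, Nupr1, Lox, AA467197, Sla, Emp1, Mgp and Csrp2. The lower ones were Tbc1d10c, Ldhd, Whrn, Wnk2, Slc25a42, Rbfox1 and Ky.

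**Figure D1:**
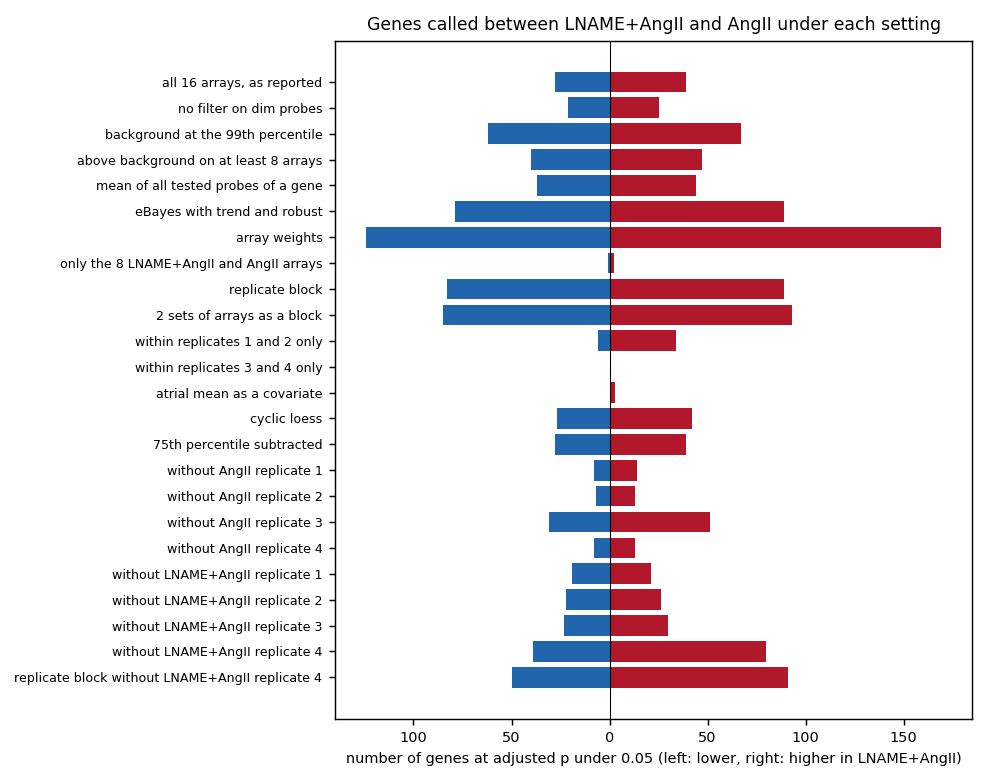
Number of genes at adjusted p under 0.05 between LNAME+AngII and AngII under each setting, with genes higher in LNAME+AngII to the right of 0 and lower genes to the left. The count of 67 on all 16 arrays becomes 119 without LNAME+AngII replicate 4, 172 with the replicate block and 3 with the 8 arrays alone.

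Promoter sequence was at hand for 48 of the 67 genes (RefSeq, GRCm38.p6), taken as the 250 bases before each start. The motifs below were picked with the results known, were searched on both strands, and are a description only. The AP-1 motif TGANTCA, bound by Fos and Jun factors, lay in 7 of 32 windows of the higher genes (21.9%; 6 of 25 genes: AA467197, Emp1, F2r, Gfpt2, Sphk1 and Sprr1a) and in 1 of 29 windows of the lower genes (3.45%), against 6.75% of all 32851 windows. The E-box CACGTG lay in 15.6% of windows of the higher genes and 17.2% of the lower, against 6.02% of all. The TEAD motif GGAATG lay in 9.38% of windows of the higher genes and 13.8% of the lower, against 12.6% of all, and the TATA box TATAAA in 9.38% of the higher and 0% of the lower, against 12.4%. The 3 windows shown are cases in which the capitals mark such a motif. The Emp1 window (chr6:135362681-135362930, plus strand, first of 2 for the gene) holds 2 AP-1 motifs, that of Ankrd2 (chr19:42035777-42036026, plus strand) holds a TATA box near its start, and that of Ldhd (chr8:111630337-111630586, minus strand) holds an E-box.
Emp1: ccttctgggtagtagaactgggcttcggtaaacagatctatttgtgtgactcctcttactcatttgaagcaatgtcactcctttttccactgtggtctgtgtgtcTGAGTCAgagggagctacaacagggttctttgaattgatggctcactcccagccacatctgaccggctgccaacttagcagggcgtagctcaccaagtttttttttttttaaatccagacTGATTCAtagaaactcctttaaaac
Ankrd2: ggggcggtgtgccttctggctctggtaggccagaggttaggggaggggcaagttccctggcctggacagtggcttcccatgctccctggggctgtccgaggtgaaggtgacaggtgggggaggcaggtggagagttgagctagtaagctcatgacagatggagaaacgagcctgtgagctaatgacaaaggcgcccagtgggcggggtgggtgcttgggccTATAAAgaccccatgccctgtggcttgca
Ldhd: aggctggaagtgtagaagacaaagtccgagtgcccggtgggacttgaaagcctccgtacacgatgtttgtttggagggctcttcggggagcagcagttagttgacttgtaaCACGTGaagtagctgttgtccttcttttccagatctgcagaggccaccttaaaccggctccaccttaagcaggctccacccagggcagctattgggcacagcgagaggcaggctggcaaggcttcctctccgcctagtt

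Some genes of matrix assembly rose. Of 16 tested genes of elastic fibres and cross-linking, 3 passed and all were higher (Mfap5, Lox and Eln), with 10 of the 16 differences positive and a list median of 0.12. Mfap5, a glycoprotein of the microfibrils that carry elastin, was at 12.54, 12.54, 12.29 and 11.44 on the LNAME+AngII arrays, against 10.62, 10.60, 11.14 and 10.15 on the AngII arrays. The lowest LNAME+AngII array, number 4, was still above the highest AngII array, number 3. The difference was 1.57 (SE 0.26; 2.98-fold; adjusted p = 0.0126), and 1.83 without LNAME+AngII array 4. Lox, the lysyl oxidase that cross-links collagen and elastin, was at 11.22, 10.92, 10.73 and 11.05 in LNAME+AngII, against 9.46, 9.30, 10.25 and 9.13 in AngII. Here too the groups did not overlap and AngII array 3 was the highest of its group. The difference was 1.45 (SE 0.23; 2.73-fold; adjusted p = 0.0126). Eln, elastin itself, was at 9.96, 10.09, 10.17 and 9.69 in LNAME+AngII, against 9.42, 9.47, 9.62 and 9.38 in AngII, a smaller difference of 0.50 (SE 0.11; 1.42-fold; adjusted p = 0.0394).

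Other matrix genes that passed were each higher. Comp, cartilage oligomeric matrix protein, which binds collagen fibrils, was at 9.81, 9.33, 9.81 and 8.82 in LNAME+AngII, against 7.32, 7.45, 8.24 and 7.09 in AngII. It was the one called gene of 19 matricellular proteins and proteoglycans (difference 1.92, SE 0.38, 3.77-fold, adjusted p = 0.0321). Among 20 matrix proteases and inhibitors, 2 passed: Timp1, the inhibitor of matrix metalloproteinases, and Ctsk, the collagen-degrading cathepsin K. Timp1 was at 11.14, 10.42, 9.95 and 10.63 in LNAME+AngII, against 9.21, 8.78, 9.60 and 8.48 in AngII, and a second Timp1 probe gave the same difference of 1.52 (2.86-fold; adjusted p = 0.0267). Ctsk was higher by 0.73 (1.66-fold; adjusted p = 0.0267). Mgp, matrix Gla protein, which inhibits calcification of vessels, was the brightest of these genes, at 14.66, 14.81, 14.74 and 14.82 in LNAME+AngII and 13.96, 14.06, 14.19 and 13.41 in AngII. Its difference of 0.85 (SE 0.13; 1.80-fold; adjusted p = 0.0126) compares with an SD of 0.08 in LNAME+AngII, where the values come close to 15, the highest on the arrays, and of 0.35 in AngII. Pamr1 (1.55, adjusted p = 0.0345) and Itgbl1, an integrin beta-like secreted protein (1.00, adjusted p = 0.0345), were the 2 called genes with overlapping groups: LNAME+AngII array 4 lay below AngII array 3 for both.

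Several of these matrix calls did not hold in every fit with 1 array left out. Eln and Comp missed the threshold without any 1 of AngII arrays 1, 2 and 4 and LNAME+AngII arrays 1, 2 and 3 (adjusted p 0.0643 to 0.127), as did Pamr1 and Itgbl1 (0.0674 to 0.119). Timp1 missed it without AngII array 1, 2 or 4 or LNAME+AngII array 1 (0.0563 to 0.0924), and Ctsk without AngII array 1, 2 or 4 or LNAME+AngII array 2 (0.0562 to 0.0922). Mfap5, Lox and Mgp passed without any 1 array.

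Collagens turned on LNAME+AngII array 4. Of 25 tested collagen genes none passed by limma on all arrays (2 at unadjusted p under 0.05; median difference 0.21), whereas without that array 3 passed, Col1a1, Col3a1 and Col16a1, and the median was 0.39. Col1a1, a chain of type I collagen, was at 9.71, 10.50, 9.70 and 6.97 in LNAME+AngII, against 9.0, 8.98, 8.66 and 8.34 in AngII. LNAME+AngII arrays 1, 2 and 3 were above every AngII array, and array 4 was below every one of them and below background. The difference was 0.48 (SE 0.52; adjusted p = 0.716), and 1.23 without that array (adjusted p = 0.0294). Col3a1, of type III collagen, had the same shape, with 10.20, 10.65, 10.78 and 8.55 in LNAME+AngII, against 9.47, 9.38, 9.79 and 9.77 in AngII. Its difference was 0.44 (adjusted p = 0.593), and 0.94 without array 4 (adjusted p = 0.0276). Without it 5 genes passed among the elastic fibre genes, where Mfap4 and Loxl1 joined, 5 among the matricellular genes (Ccn5, Comp, Sparc, Bgn and Prelp) and 4 among the proteases and inhibitors, where Mmp2 and Adamts1 joined. Postn, the matricellular protein periostin, was too dim to be tested: it was above background on 3 LNAME+AngII arrays and on no AngII array.

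**Figure D2:**
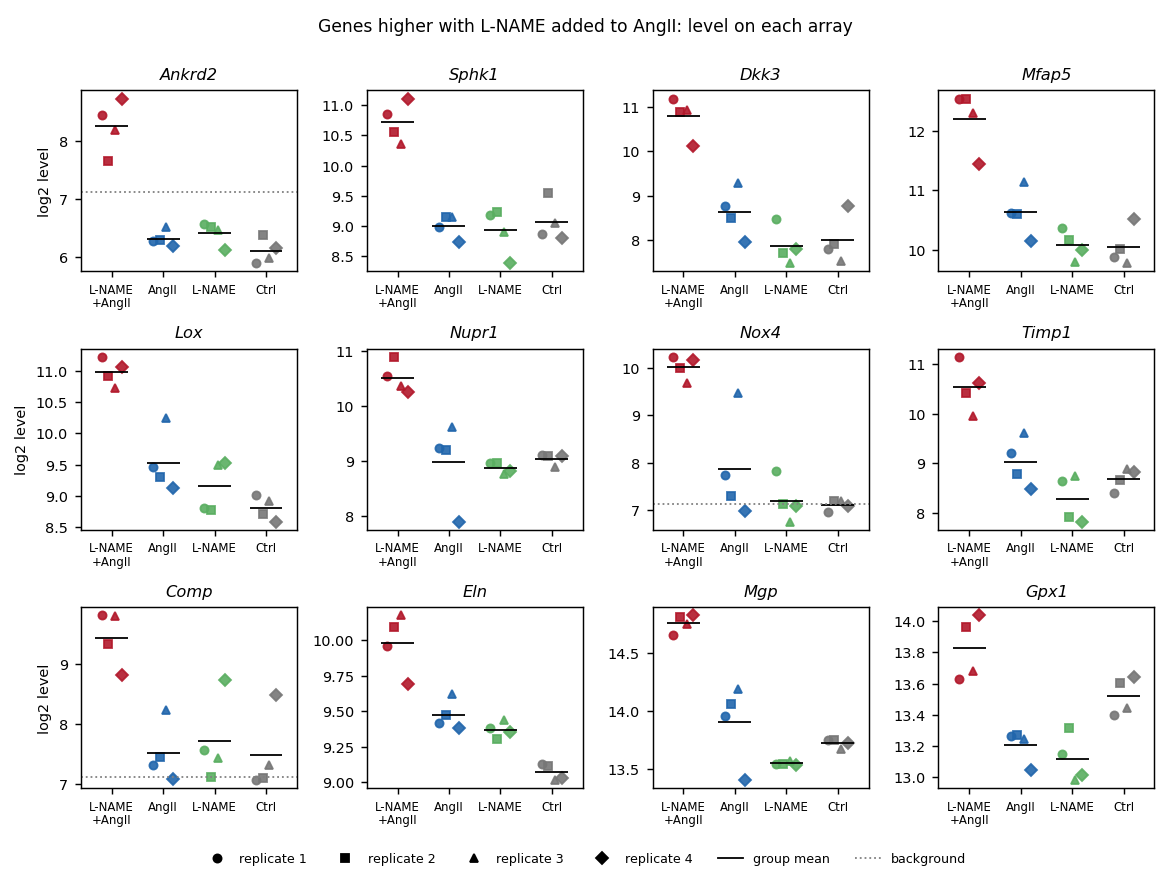
Log2 level on each array of 12 genes that were higher in LNAME+AngII, by group, with the replicate number as the marker shape, a line at the group mean and a dotted line at background (7.12) where it falls within the panel. The LNAME+AngII and AngII points do not overlap for any of the 12 genes, and AngII array 3 is often the AngII array closest to LNAME+AngII, as for Nox4 (9.47) and Lox (10.25).

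Secreted and receptor signalling genes were also among those that rose. Dkk3, a secreted glycoprotein of the Dickkopf family of Wnt modulators, had the largest difference of the 67. It was at 11.19, 10.89, 10.94 and 10.11 in LNAME+AngII, against 8.77, 8.49, 9.29 and 7.94 in AngII, with no overlap. The difference was 2.16 (SE 0.32; 4.47-fold; adjusted p = 0.0126); a second bright probe gave 1.92, and the other one lay below background on all 8 arrays. Tgfbr1, the type I receptor of TGF-beta, was at 11.93, 11.93, 11.95 and 11.83 in LNAME+AngII, against 11.24, 11.48, 11.48 and 11.30 in AngII. The arrays of LNAME+AngII were nearly level and the difference was small, at 0.53 (SE 0.11; 1.45-fold; adjusted p = 0.0321). These were the 2 called genes of 26 in TGF-beta and Wnt signalling, where the median was 0.29; without LNAME+AngII array 4 Fstl1 passed too. Ccn2, the connective tissue growth factor induced by TGF-beta, was at 14.78 ± 0.15 in LNAME+AngII and 14.83 ± 0.09 in AngII (SD, n = 4 each; difference -0.06, 95% interval -0.30 to 0.18), near the highest value on the arrays, 15, where a rise may not be measurable. Angptl7, an angiopoietin-like secreted protein, was at 12.73, 12.26, 12.10 and 10.46 in LNAME+AngII, against 9.04, 8.91, 11.28 and 8.96 in AngII. AngII array 3 was above LNAME+AngII array 4, and the difference of 2.34 did not pass (adjusted p = 0.0653), whereas without LNAME+AngII array 4 it was 2.82 (adjusted p = 0.0183).

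Sphk1 encodes sphingosine kinase 1, which makes the lipid mediator sphingosine-1-phosphate. Its levels were 10.84, 10.56, 10.35 and 11.11 in LNAME+AngII, against 8.98, 9.14, 9.15 and 8.74 in AngII. The gap between the groups was wider than the range within either one. The difference was 1.71 (SE 0.21; 3.28-fold; adjusted p = 0.00383); the other 2 probes of the gene were above background on 1 of the 8 arrays each and gave -0.28 and -0.16, so the call rests on 1 probe. F2r, the thrombin receptor PAR1, was higher by 0.58 (adjusted p = 0.0208), and Panx1, a channel that releases ATP, by 0.93 (adjusted p = 0.0481). Tlr7, the receptor for single-stranded RNA, was higher by 1.02 (adjusted p = 0.0321), and Lgals3, the secreted lectin galectin-3 of macrophages, by 1.22 (adjusted p = 0.0321). Sla, an adaptor that dampens antigen receptor signalling, was higher by 1.10 (adjusted p = 0.0143). Its other 2 probes were above background on at most 1 of the 8 arrays and gave 0.15 and -0.21, so this call too rests on 1 probe. Emp1, a tetraspan membrane protein whose promoter is shown above, was at 13.35, 13.49, 12.94 and 13.11 in LNAME+AngII, against 12.37, 12.37, 12.23 and 11.58 in AngII. Both groups were bright and apart, with a difference of 1.09 (SE 0.18; 2.12-fold; adjusted p = 0.0126). Pdpn, the mucin-type membrane protein podoplanin, was higher by 0.58 (adjusted p = 0.0394).

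Among these receptor and signalling genes, Panx1 missed the threshold with any 1 of the 8 arrays left out (adjusted p 0.0648 to 0.113). Tgfbr1 missed it without AngII array 1, 2 or 4 or LNAME+AngII array 1, 2 or 3 (0.0595 to 0.104), Lgals3 without AngII array 1, 2 or 4 or LNAME+AngII array 1 or 2 (0.0603 to 0.104), and Tlr7 without AngII array 1, 2 or 4 or LNAME+AngII array 3 (0.0505 to 0.104). F2r did so without AngII array 2 or 4 (0.0553 to 0.0745), and Pdpn without any 1 of these 8 arrays other than LNAME+AngII array 4 (0.0505 to 0.131).

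Nox4 and Gpx1 were the 2 called genes of 26 NADPH oxidases and antioxidants, where the median was -0.01. Nox4 is an oxidase that makes hydrogen peroxide, and glutathione peroxidase 1 (Gpx1) removes it. Nox4 was at 10.23, 10.00, 9.69 and 10.17 in LNAME+AngII, against 7.74, 7.30, 9.47 and 6.99 in AngII. AngII array 3 came within reach of the LNAME+AngII arrays, AngII array 4 was below background, and the groups did not overlap. The difference was 2.15 (SE 0.39; 4.43-fold; adjusted p = 0.0219), and it missed the threshold without AngII array 1, 2 or 4 or LNAME+AngII array 1 (adjusted p 0.0508 to 0.0796). Gpx1 was at 13.63, 13.96, 13.68 and 14.04 in LNAME+AngII, against 13.27, 13.27, 13.25 and 13.05 in AngII. The groups were apart, with a difference of 0.62 (SE 0.12; 1.54-fold; adjusted p = 0.0283) that missed the threshold without AngII array 1, 2 or 4 or LNAME+AngII array 2 (0.0619 to 0.0995).

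In the natriuretic peptide and hypertrophy list, 1 of 28 tested genes was higher (Ankrd2) and 1 lower (Tbc1d10c), with a median of 0.04, and without LNAME+AngII array 4 Rcan1 was higher too. Ankrd2 is an ankyrin repeat protein that binds the titin filament and responds to stretch in striated muscle. It was at 8.45, 7.65, 8.18 and 8.73 in LNAME+AngII, against 6.29, 6.30, 6.51 and 6.19 in AngII. All AngII arrays were below background and all LNAME+AngII arrays above it, so the rise was at least 2.18-fold, with the smallest adjusted p of the 67 genes (0.000353; measured difference 1.93, SE 0.19). Tbc1d10c, known as carabin, inhibits calcineurin and Ras, and was at 9.07, 9.89, 9.04 and 9.26 in LNAME+AngII, against 10.39, 10.61, 10.16 and 10.95 in AngII. The groups did not overlap, with a difference of -1.21 (SE 0.20; 0.432-fold; adjusted p = 0.0126). Csrp2, a LIM protein of smooth muscle, was higher by 0.84 (SE 0.14; adjusted p = 0.0126). Sprr1a, a cross-linked envelope protein that is also induced in stressed cardiomyocytes, was below background on all AngII arrays and rose at least 1.52-fold (adjusted p = 0.0280), though not without AngII array 1, 2 or 4 or LNAME+AngII array 1 (0.0714 to 0.0949).

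The natriuretic peptides themselves were near the highest value on the arrays, 15, in both groups, where a rise may not be measurable. Nppa averaged 14.66 ± 0.14 in LNAME+AngII and 14.68 ± 0.08 in AngII (SD, n = 4 each), a difference of -0.02 (95% interval -0.31 to 0.27). Nppb averaged 14.72 ± 0.18 in LNAME+AngII and 14.69 ± 0.15 in AngII, a difference of 0.04 (-0.22 to 0.29). Acta1, skeletal actin of the fetal programme, was also bright, at 14.17 in LNAME+AngII and 14.37 in AngII, and differed by -0.21 (-0.52 to 0.11). Myh7, the fetal myosin, was at 10.30, 9.29, 8.76 and 7.21 in LNAME+AngII, against 9.40, 8.55, 8.77 and 9.29 in AngII. LNAME+AngII held both the highest and the lowest value, and no direction could be read (-0.11, interval -1.11 to 0.88). Myh6, the adult myosin, was as bright on its brightest probe, at 14.42 in LNAME+AngII and 14.37 in AngII. It differed there by 0.04 (-0.18 to 0.27), while a second probe gave -0.82. Of 23 tested sarcomere and Z-disc genes none passed by limma (1 at unadjusted p under 0.05; median 0.00).

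The remaining higher genes were of mixed kinds. Nupr1, a stress-induced chromatin protein and the 1 called gene of 28 in stress response and chaperones, was at 10.54, 10.88, 10.36 and 10.24 in LNAME+AngII, against 9.22, 9.20, 9.61 and 7.89 in AngII. The groups were apart although AngII array 4 was low, with a difference of 1.53 (SE 0.27; 2.88-fold; adjusted p = 0.0183). AA467197, a small transcript also known as Nmes1, was at 8.85, 8.89, 8.29 and 10.14 in LNAME+AngII, against 7.11, 7.26, 7.30 and 6.93 in AngII, a difference of 1.89 (SE 0.30; adjusted p = 0.0126). Tfrc, the transferrin receptor, was higher by 1.20 (adjusted p = 0.0358), with LNAME+AngII array 4 the highest at 10.67. Ddit4, an inhibitor of the growth kinase mTORC1 that glucocorticoids induce, was higher by 0.78 (adjusted p = 0.0345) and was the 1 called gene of 23 in the glucocorticoid list. Wt1, a transcription factor of the epicardium, was higher by 0.67 (adjusted p = 0.0345), as was Phlda3, a p53 target (0.95, adjusted p = 0.0183). The other 9 higher genes were Emb, Tubb2b, Cdr2, Slc13a4, Gfpt2, Fxyd6, Dclk3, Uck2 and Runx1t1, with differences of 0.49 to 1.04. For Tubb2b, a beta-tubulin, a second bright probe gave 0.08, so the call rests on 1 probe.

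Apart from Nupr1 and AA467197, the calls in that paragraph did not hold in every fit with 1 array left out. Tfrc missed the threshold without any 1 of the 8 arrays other than LNAME+AngII array 4 (adjusted p 0.0505 to 0.112), Wt1 without any 1 other than LNAME+AngII array 2 (0.0506 to 0.0987), and Ddit4 without AngII array 1, 3 or 4 or LNAME+AngII array 1, 2 or 3 (0.0510 to 0.110). Phlda3 missed it without AngII array 1 alone (0.0563). The 9 genes listed last missed it without 3 to 7 of the 8 arrays, among them AngII array 2 for each (adjusted p of up to 0.135).

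Lower levels were found for genes of electrical activity and calcium handling. Of 27 tested members of that list 4 passed and all were lower: Hrc, Camk2a, Kcnd2 and Scn4b, with a list median of -0.10; without LNAME+AngII array 4 Kcnv2 was lower too. Hrc, a calcium-binding protein of the sarcoplasmic reticulum, was at 14.25, 14.02, 14.13 and 13.97 in LNAME+AngII, against 14.47, 14.57, 14.50 and 14.59 in AngII. The groups were apart by little, with a difference of -0.44 (SE 0.09; 0.737-fold; adjusted p = 0.0332). Scn4b, a sodium channel beta subunit, was at 10.61, 10.49, 10.87 and 10.00 in LNAME+AngII, against 11.22, 11.02, 11.28 and 11.40 in AngII, a difference of -0.74 (SE 0.15; adjusted p = 0.0345). Kcnd2 encodes Kv4.2, a pore subunit of the transient outward potassium current. It was near background in LNAME+AngII, at 7.09, 7.38, 7.41 and 6.94, against 8.07, 8.31, 7.79 and 7.86 in AngII (difference -0.80, SE 0.15, adjusted p = 0.0277). Camk2a, a calcium-calmodulin dependent kinase subunit, differed by -0.64 (adjusted p = 0.0321). By contrast Atp2a2, the calcium pump SERCA2, was at 14.49 ± 0.05 in LNAME+AngII and 14.41 ± 0.12 in AngII (SD, n = 4 each). The difference was 0.08 (95% interval -0.13 to 0.28), at levels near the highest on the arrays, 15, where a rise may not be measurable. Each of the 4 lower genes missed the threshold without AngII array 1, 2 or 4, and without LNAME+AngII arrays 2 or 3 (Hrc, Camk2a), 1 (Kcnd2), or 1 or 2 (Scn4b, also AngII array 3), with adjusted p between 0.0505 and 0.116.

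Enzymes and carriers of metabolism were also among the genes that fell; they are gathered here after their values were seen, apart from the counts of the 2 lists given with them. Ldhd, the mitochondrial dehydrogenase of D-lactate, was at 8.83, 8.64, 8.67 and 8.19 in LNAME+AngII, against 9.62, 9.47, 9.42 and 9.72 in AngII. The groups did not overlap, with a difference of -0.97 (SE 0.14; 0.510-fold; adjusted p = 0.0126), and its other 2 probes gave -0.48 and -0.81. Slc25a42, the carrier that brings coenzyme A into mitochondria, was at 9.10, 8.87, 8.85 and 8.89 in LNAME+AngII, against 9.63, 9.72, 9.65 and 10.16 in AngII, a difference of -0.86 (SE 0.14; adjusted p = 0.0126). Both genes passed without any 1 array. Ces1d, a carboxylesterase that hydrolyses stored lipid, was at 12.93, 12.99, 13.02 and 11.90 in LNAME+AngII, against 13.88, 13.83, 13.72 and 13.77 in AngII. LNAME+AngII array 4 was far below the others of its group, and the difference was -1.09 with it (adjusted p = 0.0208) and -0.82 without it (adjusted p = 0.00196). Phkg1, the catalytic subunit of muscle phosphorylase kinase, which starts glycogen breakdown, was at 8.61, 8.91, 8.65 and 9.51 in LNAME+AngII, against 10.20, 10.07, 10.09 and 9.85 in AngII, a difference of -1.13 (SE 0.20; adjusted p = 0.0208). Pdp2, the phosphatase that activates pyruvate dehydrogenase, differed by -0.57 (adjusted p = 0.0321).

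Ces1d was the 1 called gene of 39 in fatty acid uptake and oxidation, yet 34 of the 39 differences were negative and 5 positive. Over all 9119 genes 4426 were positive. Of the 39 genes 19 were at limma's unadjusted p under 0.05, against 1415 of the 9119 (15.5%). The list median was -0.35, and -0.25 without LNAME+AngII array 4, where Acot1 passed too. Cpt1b, the muscle carnitine palmitoyltransferase, differed by -0.32 (95% interval -0.65 to 0.01; adjusted p = 0.338) and by -0.16 without that array. Pdk4, the kinase that shuts pyruvate dehydrogenase, was at 14.72, 14.59, 14.82 and 11.85 in LNAME+AngII, against 14.72, 14.71, 14.69 and 14.89 in AngII. Its difference of -0.76 (adjusted p = 0.447) rested on array 4, and was -0.04 without it. Glucose use, the TCA cycle and pyruvate dehydrogenase had 2 called genes of 41, Phkg1 and Pdp2, and a median of -0.12; without LNAME+AngII array 4 Pfkp passed too, as higher. Genes outside the lists that fell include Mlxipl, the glucose-sensing transcription factor ChREBP (-0.68, adjusted p = 0.0321), Acad12, an acyl-CoA dehydrogenase (-0.79, adjusted p = 0.0386), and Acot3, a peroxisomal thioesterase, which was below background on all LNAME+AngII arrays and at least 1.14-fold lower (adjusted p = 0.0345). Slc5a6, which carries biotin and pantothenate into cells, differed by -0.51 (adjusted p = 0.0358), and Hlcs, which attaches biotin to carboxylases, was below background on all LNAME+AngII arrays and at least 1.38-fold lower (adjusted p = 0.0345).

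Among the metabolic genes, Ces1d missed the threshold without AngII array 1, 2 or 4 (adjusted p 0.0603 to 0.0707), Phkg1 without AngII array 1 or 2 or LNAME+AngII array 1 (0.0508 to 0.0692), and Mlxipl without AngII array 1, 2 or 4 or LNAME+AngII array 1 (0.0508 to 0.104). Slc5a6 and Hlcs missed it without AngII array 1, 2 or 4 or LNAME+AngII array 1, 2 or 3 (0.0524 to 0.121), and Pdp2 also without AngII array 3 (0.0528 to 0.0987). Acad12 missed it without any 1 of the 8 arrays other than LNAME+AngII array 3 (0.0508 to 0.109), and Acot3 without any 1 other than AngII array 3 or LNAME+AngII array 3 (0.0561 to 0.109).

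The other lower genes that passed without any 1 array were Whrn, Wnk2, Rbfox1 and Ky. Whrn, a scaffold protein known from the stereocilia of hair cells, was at 9.89, 9.78, 9.97 and 9.29 in LNAME+AngII, against 10.51, 10.66, 10.70 and 10.91 in AngII (-0.96, SE 0.15, adjusted p = 0.0126). Wnk2, a kinase of the family that controls chloride cotransporters, was at 9.81, 9.43, 9.88 and 9.60 in LNAME+AngII, against 10.53, 10.25, 10.66 and 11.09 in AngII (-0.95, SE 0.16, adjusted p = 0.0126). Rbfox1, a splicing regulator of muscle and neurons, was at 11.67, 11.50, 11.51 and 11.33 in LNAME+AngII, against 12.35, 12.33, 11.97 and 12.51 in AngII (-0.79, SE 0.13, adjusted p = 0.0126). For all 3 genes the highest LNAME+AngII array was below the lowest AngII array. Ky, a muscle protein lost in a mouse kyphoscoliosis strain, differed by -0.82 (SE 0.14; adjusted p = 0.0133). Ano10, of the anoctamin family of membrane proteins, had the most negative difference of the 67, -1.29 (SE 0.23; adjusted p = 0.0208), but missed the threshold without AngII array 1, 2 or 4 (0.0558 to 0.0768). The 8 genes left were Mvb12b, Gramd1b, N4bp2, Tafa5, Flvcr2, Rgma, Ppp1r26 and Slc41a3, with differences of -0.95 to -0.52. They missed the threshold without 3 to 7 of the 8 arrays, among them AngII arrays 2 and 4 for each (adjusted p of up to 0.122). For Slc41a3, 2 other probes above background on all 8 arrays gave -0.04 and -0.32.

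**Figure D3:**
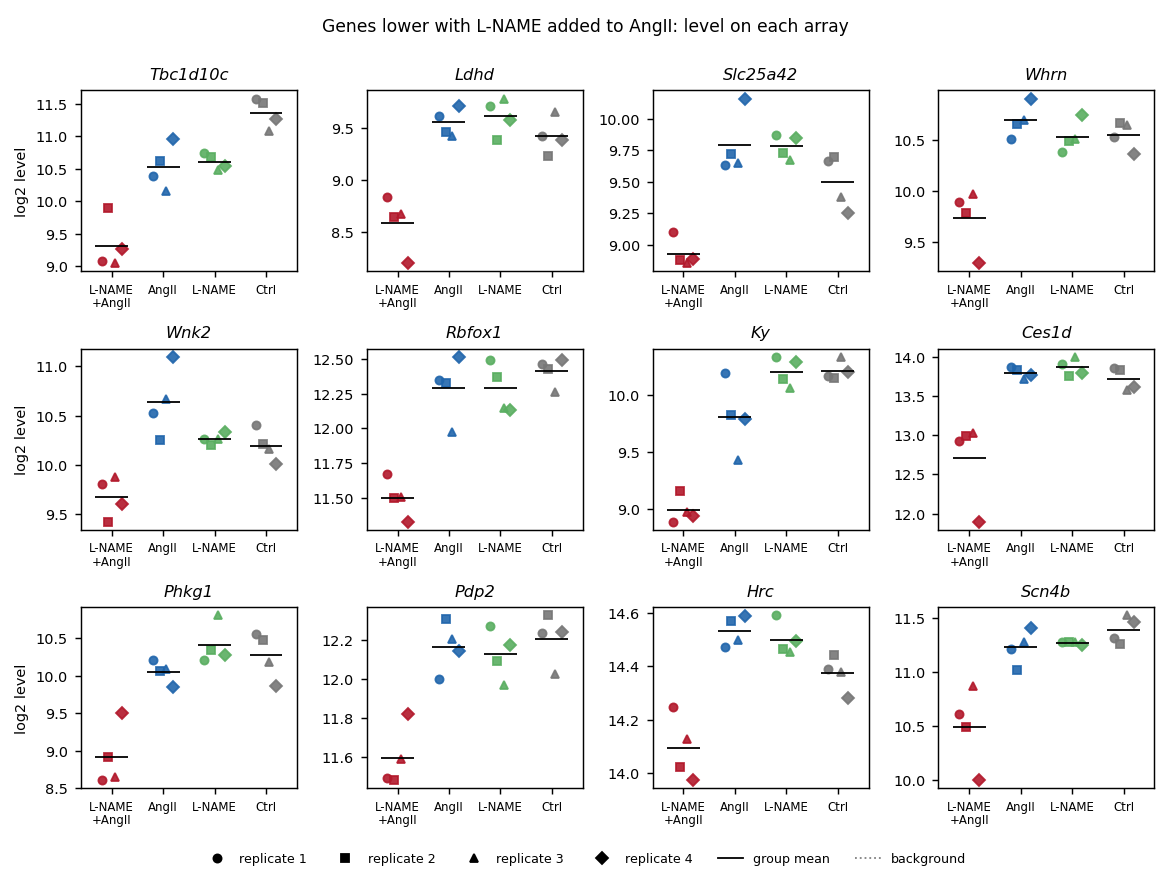
Log2 level on each array of 12 genes that were lower in LNAME+AngII, by group, with the replicate number as the marker shape and a line at the group mean. All 4 LNAME+AngII points lie below all 4 AngII points in each panel, with LNAME+AngII array 4 far below the rest of its group for Ces1d (11.90).

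Transcripts of the pathway that L-NAME acts on did not pass on all arrays. Of 23 tested genes of nitric oxide and cyclic GMP signalling none passed by limma (2 at unadjusted p under 0.05; median 0.10), and without LNAME+AngII array 4 only Ddah1, which degrades the natural inhibitor of nitric oxide synthase, did. Nos3, the endothelial synthase, was at 10.28, 10.23, 10.10 and 9.72 in LNAME+AngII, against 10.01, 9.95, 10.20 and 9.71 in AngII. The groups overlapped and the difference was 0.11 (95% interval -0.16 to 0.39), with -0.25 and -0.43 on its other probes. Nos1 was near background (difference 0.21), Nos2 was too dim to be tested, and Gucy1a1, a subunit of soluble guanylate cyclase, differed by -0.08 (-0.39 to 0.23). Of 10 tested renin-angiotensin and endothelin genes none passed (4 at unadjusted p under 0.05; median -0.13), and 1, Ednrb, did without LNAME+AngII array 4. Agtr1a, the AngII receptor, differed by 0.04 (-0.20 to 0.27), and Edn1, endothelin 1, by 0.41 (0.09 to 0.73; adjusted p = 0.200).

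Respiratory chain and mitochondrial ribosome genes were centred near 0. None of 33 complex I subunits passed (0 at unadjusted p under 0.05; median -0.02), none of 39 subunits of complexes II to V (0; 0.01), and none of 69 mitochondrial ribosome genes (4; 0.00). Mitochondrial biogenesis and dynamics had none of 26 (5; -0.13), and Ppargc1a, the coactivator of that programme, differed by -0.18 (95% interval -0.42 to 0.07). Without LNAME+AngII array 4, 1 complex I gene passed (Ndufb11, lower). Acute-phase and inflammatory genes had none of 28 (7; 0.15), with Lcn2 at 0.72 (adjusted p = 0.377); under the replicate block 2 passed, Serpina3n and Ccl6. None passed among 40 interferon and antigen presentation genes (3; -0.06), 17 circadian genes (2; 0.06), 17 immediate early genes (3; -0.05) and 14 cell cycle genes (3; 0.13), except Egr2 of the immediate early genes without LNAME+AngII array 4.

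**Figure D4:**
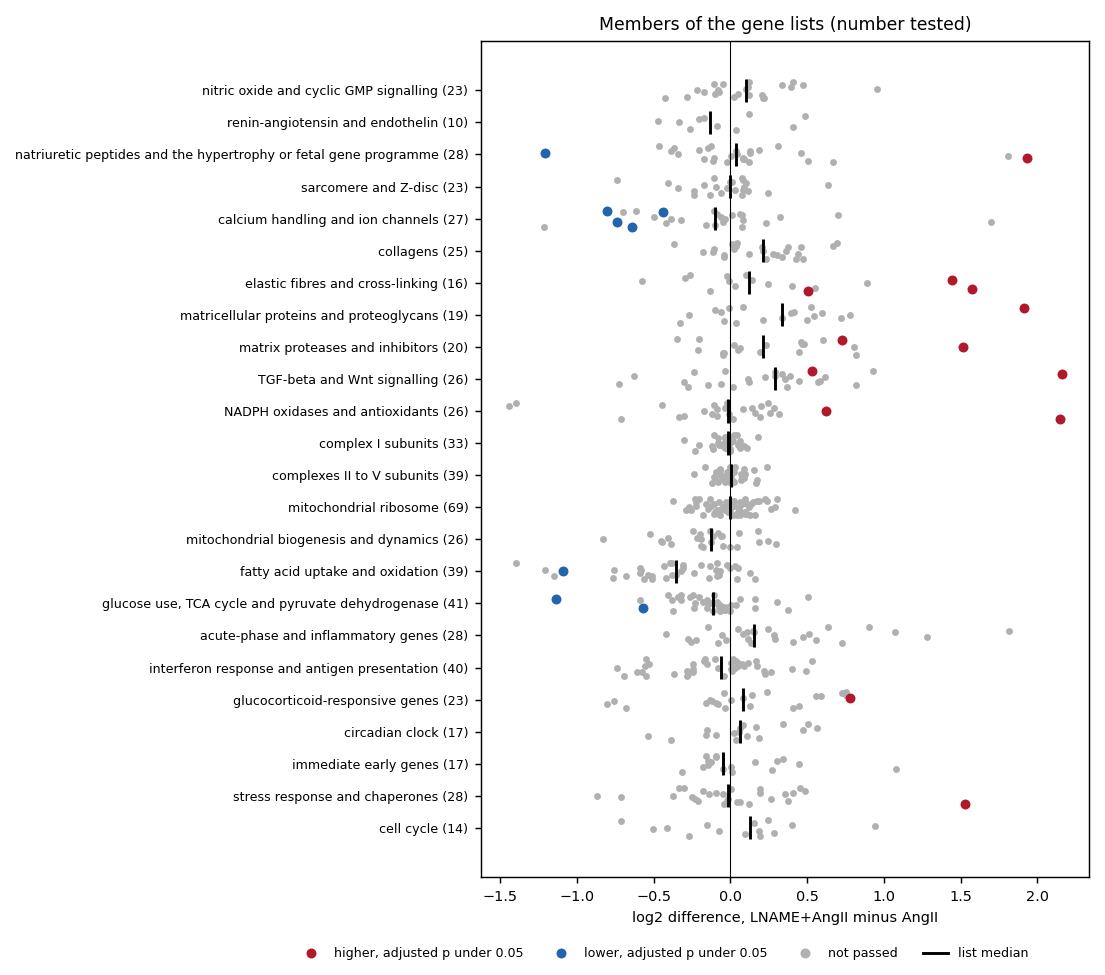
Log2 difference, LNAME+AngII minus AngII, of every tested member of 24 gene lists, with members at adjusted p under 0.05 in red (higher) or blue (lower), the others in grey and a bar at each list's median. Red points lie in the elastic fibre, matricellular, protease, TGF-beta and Wnt, NADPH oxidase, hypertrophy, glucocorticoid and stress lists, and blue points in the hypertrophy, channel, fatty acid and glucose lists, while complex I to V and ribosome members cluster at 0.

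Markers of cell types were compared in the same way; in whole tissue more cells of a type and more RNA per cell cannot be told apart. Of 17 fibroblast markers 15 were positive and 1 passed (Mfap5; median 0.44), and without LNAME+AngII array 4 the median was 0.73 and 5 passed (Col1a1, Col3a1, Mfap4, Mfap5 and Pi16). Their mean level was 9.65 to 10.82 on the LNAME+AngII arrays and 9.68 to 10.25 on the AngII arrays, with array 4 the low one. Macrophage markers averaged 10.00 to 10.54 on the LNAME+AngII arrays and 9.69 to 10.39 on the AngII arrays, and 1 of 13 passed (Lgals3; median 0.22). Endothelial markers had none of 18 (4 at unadjusted p under 0.05; median 0.00), and ventricular markers none of 13 (1; -0.06). Smooth muscle and pericyte markers had none of 12 (3 at unadjusted p under 0.05, median -0.13). Their mean was 9.895 to 10.425 on the LNAME+AngII arrays and 10.433 to 10.544 on the AngII arrays. The groups were thus apart, but their nearest arrays were almost level. Ctrl arrays were at 10.05 to 10.15. Mesothelial and epicardial markers had 1 of 3 (Wt1, list median 0.09), and none of the 3 passed without LNAME+AngII array 4. The means of these markers were 8.40 to 8.76 in LNAME+AngII and 8.17 to 8.37 in AngII and did not overlap. They include Wt1, which was called on these same arrays, so their separation is no further evidence. Ctrl arrays ran from 8.06 to 8.64 and LNAME arrays from 8.04 to 8.82. None passed among 4 erythroid (2; 0.62), 4 adipocyte (3; 0.10) and 6 skeletal muscle markers (0; 0.07). Lymphocyte and granulocyte markers had none of 4 tested (2; 0.82), at 7.78 to 9.31 in LNAME+AngII and 7.29 to 7.94 in AngII, with S100a8 at 1.81 (adjusted p = 0.0865). What part these cells had in the differences was not tested.

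Of the 13 tested atrial and conduction markers 6 differences were positive and 7 negative, with a median of -0.02, and 1 passed, Dkk3, which atrial muscle also expresses. Sln, Myl4 and Myl7, 3 of these markers, averaged 9.17, 8.12, 10.55 and 7.81 on the LNAME+AngII arrays, against 6.94, 7.03, 7.34 and 7.73 on the AngII arrays. On the mean of these 3 genes all 4 LNAME+AngII arrays were above all 4 AngII arrays, with array 4 barely so. A Ctrl array reached 9.78. Singly none of the 3 passed: Myl4 differed by 1.81 (adjusted p = 0.115), Sln by 1.70 (adjusted p = 0.172) and Myl7 by 1.45 (adjusted p = 0.341). On AngII arrays Myl7 and Sln were below background. With the mean of Sln, Myl4 and Myl7 as a covariate 3 genes passed, Sphk1, Ankrd2 and AA467197, and all 67 genes kept their direction. Their median absolute difference was 0.90 and their median SE 0.20, against 0.93 and 0.16 without the covariate. Single genes moved both ways. Dkk3 went from 2.16 to 1.65, Comp from 1.92 to 1.26 and Phkg1 from -1.13 to -0.74. Sphk1 went from 1.71 to 1.97 and AA467197 from 1.89 to 2.28.

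L-NAME and salt without AngII could be read on the LNAME and Ctrl arrays. These enter the main comparison only through the shared spread and the choice of probes. Between LNAME and Ctrl limma called 0 genes, with 1043 at unadjusted p under 0.05. The 67 genes were chosen on LNAME+AngII minus AngII, judged against a spread to which the LNAME and Ctrl arrays contribute. Their median absolute difference in LNAME minus Ctrl was 0.16. By sign 29 of the 67 matched, 19 of the 39 higher genes and 10 of the 28 lower, where 45.3% of all genes matched. Dkk3 was at 7.86 in LNAME and 8.0 in Ctrl, a difference of -0.13, and Sphk1 differed by -0.14, Nox4 by 0.08 and Mfap5 by 0.03. Gpx1 (-0.41), Lgals3 (-0.49) and Timp1 (-0.41) were lower in LNAME than in Ctrl without passing. Ano10 and Tbc1d10c were negative in both settings, at -0.83 and -0.75 in LNAME minus Ctrl.

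The difference of the 2 differences was tested as an interaction. No gene passed by limma (smallest adjusted p 0.0548; 1493 at unadjusted p under 0.05). The contrast holds the difference that chose the 67 genes, so their own interaction values are a description. Genes at that smallest adjusted p include Ankrd2 (interaction 1.61), Sphk1 (1.85), Gpx1 (1.03), Ldhd (-1.16), Slc25a42 (-1.14) and Mlxipl (-1.10). For Ano10 (-0.47, adjusted p = 0.516) and Tbc1d10c (-0.46, adjusted p = 0.430) it was small. With 1 array left out the count of interaction genes ran from 0 to 51, the highest without LNAME+AngII array 4; 18 passed without AngII array 3, 15 without LNAME+AngII array 3 and 1 without LNAME+AngII array 2. With the replicate number as a block 42 passed.

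**Figure D5:**
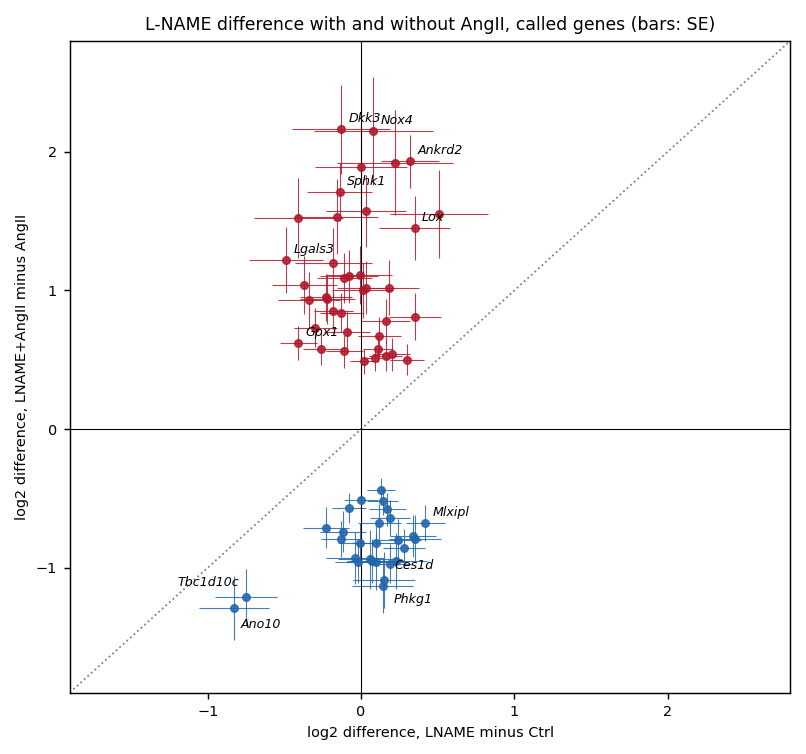
Log2 difference of the 67 genes with AngII (LNAME+AngII minus AngII, vertical axis) and without it (LNAME minus Ctrl, horizontal axis), with SE bars and a dotted line where both are equal. The vertical values chose the genes. Most genes stand in a narrow column around 0 on the horizontal axis, while Ano10 (-1.29 and -0.83) and Tbc1d10c (-1.21 and -0.75) lie nearer the dotted line.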

How the data were processed

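Left ventricular RNA for the 16 arrays was labelled as biotinylated cRNA and hybridised to Illumina BeadChips, per the labels' protocols. The submitters' processing notes name GenomeStudio and lumi, but no versions; the deposited table holds the authors' log2 intensity of 25697 probes on 16 arrays. Its sorted columns differ by at most 0.00132, so the values are quantile normalised. The sources used here do not state the kind of log transform or any background subtraction, and both bear most on dim genes. The 64 sample columns of another table match no label by name and were left out.

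Symbols came from the platform annotation (23978 probes with 1 symbol, 0 with several, 1719 with none). Background was the 95th percentile of 1341 chemosensory receptor probes (7.12). The filter kept 13021 probes brighter than this on 4 or more arrays, and each gene was read from its brightest probe (9119 genes). A gene not above background on any array of a group has a bound as its fold, taken per array against background or its own level, whichever is higher. limma 3.58.1 (R 4.3.3) fitted 4 group means over all 16 arrays, with Benjamini-Hochberg adjustment at 0.05; precision is limited by the number of arrays. The script was tested on simulated data.

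The groups compared, gene lists and named genes were chosen with earlier results of these data known. Named genes are the 12 highest and 12 lowest called, non-overlapping genes, up to 3 called members of each list, and 30 genes given whatever their value; the other called genes were named after their values were seen. Same-numbered arrays deviated together (r 0.133 to 0.452 in all 4 pairs), and the replicate block was fitted on that ground. So did arrays 1 with 2 and 3 with 4 (0.251 to 0.340), and arrays across these 2 sets did not (-0.373 to -0.149). The median r was 0.297 for same-numbered pairs and 0.307 for other pairs within a set. These correlations therefore do not tell a block by number from a block by the 2 sets. No 2 arrays were identical.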

Additional observations from a re-analysis of the deposited data

Results flagged for a closer look

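Among the genes given by name, 186 pairs of a gene and a group were checked for an array far from the other 3 of its group, and 20 were found. Chance gives about 1 in 20 such pairs. LNAME+AngII array 4 accounts for 8 of the 20 and AngII array 4 for 7.

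On LNAME+AngII array 4, Pdk4 was at 11.85 (others 14.59 to 14.82), Ces1d at 11.90 (12.93 to 13.02), Gramd1b at 8.19 (9.15 to 9.34), Itgbl1 at 10.70 (11.58 to 11.65) and Mlxipl at 9.51 (10.04 to 10.09), all below the rest of their group. On the same array Tfrc was at 10.67 (others 9.59 to 9.64), Phlda3 at 10.09 (9.47 to 9.58) and Cdr2 at 10.91 (10.09 to 10.23), all above it.

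On AngII array 4, Slc25a42 was at 10.16 (others 9.63 to 9.72), N4bp2 at 8.92 (8.08 to 8.18) and Pdk4 at 14.89 (14.69 to 14.72), above the rest. Gpx1 at 13.05 (13.25 to 13.27), Ccn2 at 14.70 (14.87 to 14.89), Edn1 at 8.81 (9.07 to 9.10) and Tlr7 at 7.46 (8.05 to 8.11) were below it there.

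The other 5 were spread over 5 arrays. Angptl7 was at 11.28 on AngII array 3 (others 8.91 to 9.04), F2r at 12.53 on AngII array 2 (12.80 to 12.85), Slc25a42 at 9.10 on LNAME+AngII array 1 (8.85 to 8.89), Wt1 at 10.11 on LNAME+AngII array 2 (10.63 to 10.74) and Runx1t1 at 9.55 on LNAME+AngII array 3 (9.80 to 9.85).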

How the results depend on the processing

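The 67 called genes kept their direction in every alternative in which they were tested, within replicates 1 and 2 and within 3 and 4 included. For the 65 whose groups did not overlap, leaving out or splitting arrays could not have reversed it. What moved was how many passed. The count was 129 with background at the 99th percentile, 168 with eBayes trend and robust, 293 with array weights, 178 with the 2 sets of arrays as a block, 40 within replicates 1 and 2, and 0 within replicates 3 and 4 (907 at unadjusted p under 0.05), where fewer arrays enter. It was 3 with only the 8 arrays of the comparison and 3 with the atrial mean as a covariate. With the replicate block it was 172, and 141 for the block without LNAME+AngII replicate 4, an alternative chosen after seeing the data. No filter (46), a filter of 8 arrays (87), the mean of a gene's probes (81), cyclic loess (69) and subtraction of the 75th percentile (67) stayed within 1.5 times. With 1 array left out the count ran from 20 to 119.

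For LNAME minus Ctrl the count was 0 in every alternative other than array weights (41). For the interaction it was 60 with the 99th percentile, 24 with the 8-array filter, 8 with the mean of probes, 156 with trend and robust, 179 with array weights, 42 with the replicate block, 80 with the 2 sets as a block and 49 for the block without LNAME+AngII replicate 4, and ran from 0 to 51 with 1 array left out. The cause was not tested. Uncalled genes that changed sign stayed uncalled. Signal near background limits the called genes below it on some or all arrays of a group: Ankrd2, Sprr1a, Acot3, Hlcs, Kcnd2, AA467197, Pamr1, Emb, Panx1, Comp, Nox4, Mvb12b, N4bp2, Dclk3 and Tafa5.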
